A study of Mus musculus with 24 samples.

Results

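The activating arm of the liver clock was followed through 4 genes, Arntl, Clock, Npas2 and Rora, in mice with and without the PAR bZip transcription factors. The genes were taken by symbol, and all 4 were found among the 54532 genes of the count table and passed the filter on low counts, which left 15090 genes for testing. Liver mRNA was sequenced in 24 libraries, with 2 libraries for each of 2 genotypes at each of 6 times, ZT04, ZT08, ZT12, ZT16, ZT20 and ZT24, where zeitgeber time (ZT) counts hours from lights on. The knockout mice were Hlf-/-/Dbp-/-/Tef-/-, without any of the 3 PAR bZip genes, and the wild-type mice were Hlf+/+/Dbp+/+/Tef+/+. Both genotypes were 12 to 16 weeks old and had food ad libitum (AL in the labels). The labels name no promoter, Cre or tissue for the deletions, and do not give the sex of the animals in words. One library of each group carries the letter I and the other the letter P, here set I and set P. That these came from separate animals is not stated, so p-values measure the spread between libraries, which may be technical.

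BMAL1 (the product of Arntl) pairs with CLOCK or with its relative NPAS2, and the pair binds E-boxes to switch on Per, Cry and Nr1d genes, among others, including Dbp. The PER and CRY proteins then inhibit the pair, while REV-ERB receptors (Nr1d1, Nr1d2) and ROR receptors (Rora among their genes) compete for ROR elements, where REV-ERBs repress and RORs activate. Arntl is the best known gene governed through ROR elements, and Clock, Npas2, Nfil3 and Cry1 have also been described as such in mouse. DBP, TEF and HLF bind another sequence, the D-box, and NFIL3 represses through it.

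Because the control of Arntl runs through ROR elements near its start, promoter sequence is shown for the 2 members with the deepest daily swing, Arntl and Npas2. Sequences are from RefSeq, build GRCm38.p6, and cover 250 bases before to 50 bases after a gene's start, a window of 300 bases. All 4 genes matched an entry. The downstream one of 2 Arntl windows, at chr7:113207261-113207560, plus strand, holds a ROR element core and a variant of it, both in capitals. The Npas2 window lies at chr1:39194022-39194321, plus strand, and holds none of the letters searched.
Arntl promoter: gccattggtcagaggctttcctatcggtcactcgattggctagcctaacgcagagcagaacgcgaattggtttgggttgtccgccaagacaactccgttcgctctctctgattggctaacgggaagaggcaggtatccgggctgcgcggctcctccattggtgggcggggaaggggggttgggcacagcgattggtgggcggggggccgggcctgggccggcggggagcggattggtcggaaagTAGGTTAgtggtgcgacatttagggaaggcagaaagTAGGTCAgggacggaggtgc
Npas2 promoter: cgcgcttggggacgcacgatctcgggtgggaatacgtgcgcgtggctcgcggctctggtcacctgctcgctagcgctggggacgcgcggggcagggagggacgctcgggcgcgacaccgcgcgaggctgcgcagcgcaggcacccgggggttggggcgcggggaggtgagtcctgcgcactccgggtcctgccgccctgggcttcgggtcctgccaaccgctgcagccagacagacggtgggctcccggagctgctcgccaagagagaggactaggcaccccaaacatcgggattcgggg
The searches used TAGGTCA for the ROR element core, TAGGTTA for its variant, CACGTG for the E-box and TTATGTAA or TTACGTAA for the D-box, on both strands, and none of the matches overlapped another. Of 32851 RefSeq promoter windows of the same length, 2.61% hold TAGGTCA, 1.44% TAGGTTA, 7.15% the E-box letters and 1.06% the D-box letters. No match lies in the 3 windows of Clock or in that of Rora, which says only that these letters are not in those windows. Side by side, the elements of Arntl share the letters that run from aaag into the capitals. The first lies at chr7:113207493-113207523, plus strand, and the second at chr7:113207529-113207559, plus strand. The core of Nfil3, read on the plus strand of a gene on the minus strand, lies at chr13:52981033-52981063.
Arntl, variant core: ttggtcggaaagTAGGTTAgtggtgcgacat
Arntl, core: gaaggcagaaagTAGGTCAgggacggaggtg
Nfil3, core: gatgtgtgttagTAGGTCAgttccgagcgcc

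Totals ran from 14613001 to 19288322 counts per library, and the levels of the deleted genes went with the labels. Averaged over the day, Hlf was −5.88, Tef −3.71 and Dbp −8.10 on the log2 scale in knockout against wild type, with Dbp at 0.0199 ± 0.0383 CPM in knockout and 15.4 ± 20.3 CPM in wild type (SD, n = 12 each). CPM here are counts scaled to the TMM-scaled size of their library. The 6 wild-type libraries of set I stood apart from the other 18 before any test was made. Across genes, the deviation of a wild-type set I library from the median library correlated with GC content at r between 0.211 and 0.648, against −0.305 to 0.0538 in the 18 others, and with log2 transcript length at r between −0.274 and −0.0871, against −0.0538 to 0.0989. Clock and Rora have long transcripts poor in GC, with longest annotated transcripts of 9744 and 10878 bases and a GC content of 40.9% each. Arntl (3995 bases, 48.2% GC) and Npas2 (4236 bases, 52.3% GC) do not. Levels, day averages and rhythms of Clock and Rora are therefore also given in set P alone, and single times without wild-type set I.

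The size of that offset was read from 141 genes with transcripts of at least 9000 bases, at most 45% GC and a mean log2 CPM of at least 3, among them Clock and Rora. In wild type their median log2 level in set I over set P was −2.29 at ZT04, −2.21 at ZT16 and −2.88 at ZT20, and between −0.76 and −0.52 at the other 3 times. In knockout it lay between −0.26 and −0.07 at all 6 times, though Clock itself was at −0.78 at ZT12 and −0.49 at ZT24. Clock was at −3.31, −3.24 and −4.38 in wild type at ZT04, ZT16 and ZT20, lower than most of the 141 genes, and Rora at −2.34, −2.66 and −3.85. Arntl stood at 0.84 at ZT04 and 0.55 at ZT16 in wild type and between −0.18 and 0.06 at the other times. The wild-type libraries of set I thus carried the fewest reads of long, AT-rich transcripts at ZT04, ZT16 and ZT20, and the cause was not tested.

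**Figure D1:**
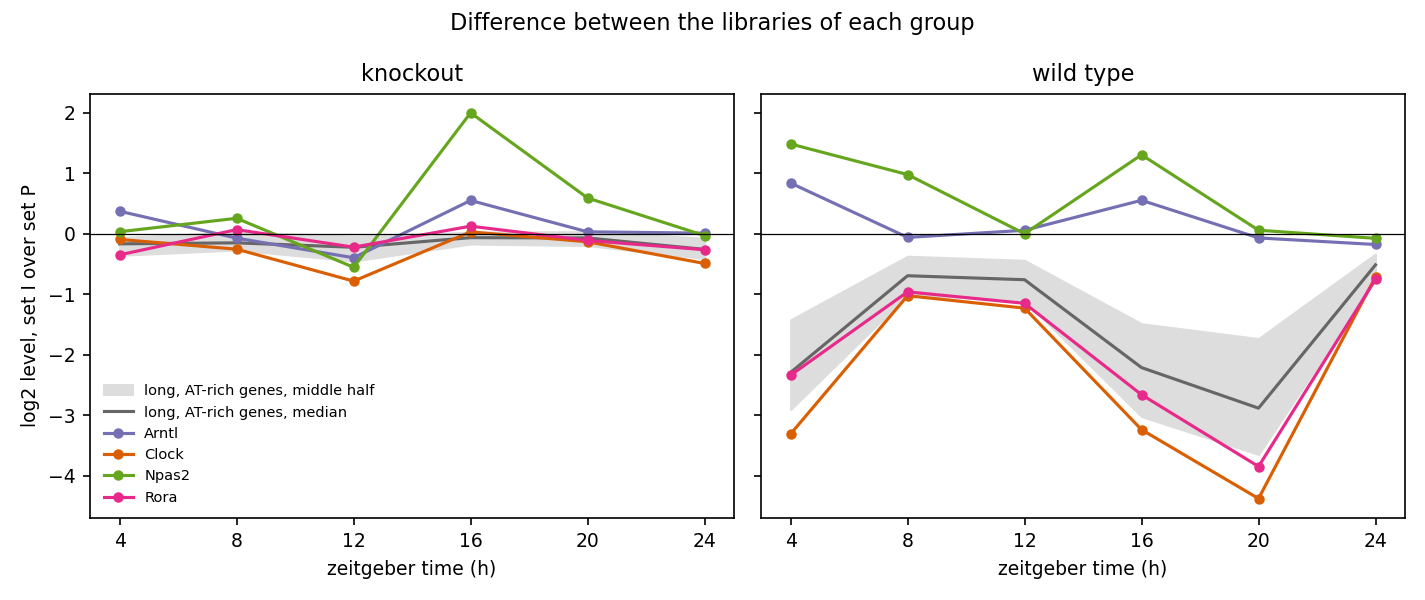
Log2 level in set I minus that in set P (log2 CPM with a prior count of 2; vertical axis) at each zeitgeber time (horizontal axis, h) for the 4 genes, with the median and interquartile range of 141 long, AT-rich genes in grey. In knockout the lines lie between −0.78 (Clock at ZT12) and 0.59 (Npas2 at ZT20) apart from Npas2 at ZT16. In wild type Clock and Rora fall along with the grey band, to −4.38 and −3.85 at ZT20, below its lower edge of −3.65 there.

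Arntl (ENSMUSG00000055116, mm10 chromosome 7, 113207465 to 113314126, plus strand, protein coding) swung over the day in both genotypes and was slightly lower in the knockout. In knockout livers its set I and set P levels were 25.1 and 19.4 CPM at ZT04, 1.08 and 1.14 at ZT08, 1.70 and 2.28 at ZT12, 30.6 and 20.9 at ZT16, 37.0 and 36.2 at ZT20, and 41.4 and 41.1 at ZT24. In wild-type livers they were 37.6 and 21.0 CPM at ZT04, 1.95 and 2.04 at ZT08, 2.97 and 2.85 at ZT12, 34.9 and 23.7 at ZT16, 37.0 and 38.9 at ZT20, and 40.7 and 46.1 at ZT24. The trough fell at ZT08 and the highest level at ZT24 in both genotypes. Both knockout libraries lay below both wild-type libraries at ZT08, ZT12 and, by a narrow margin, ZT20, and the genotypes overlapped at ZT04, ZT16 and ZT24. The share of all genes that separate in this way is not given, so this is a description. The highest group mean was 37.1 times the lowest in knockout and 21.8 times in wild type. At ZT04 and ZT16 the set I library exceeded the set P library in both genotypes.

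Averaged over the 6 times, Arntl was lower in knockout by a log2 change of −0.35 (SE 0.11, 95% interval −0.58 to −0.11, edgeR adjusted p = 0.0278). It was the one gene of the 4 called in this contrast, in which 33.2% of all genes were called and 21.1% were called lower and 12.1% higher, so a single call among 4 is near that background. In set P alone the change was −0.21 (SE 0.08, edgeR adjusted p = 0.117), and without the 6 wild-type libraries of set I it was −0.24 (SE 0.11, edgeR adjusted p = 0.168, with 18.8% of genes called). The call does not hold without wild-type set I. In that fit wild type had 1 library per group, so its SE came from the spread between knockout libraries alone. Leaving out a single library ended the call in 9 of 24 cases, with edgeR adjusted p of 0.0501 to 0.0625. These were the knockout libraries ZT04 P (0.0595, change −0.30), ZT08 I (0.0541, −0.32), ZT12 I (0.0601, −0.30), ZT16 P (0.0559, −0.29), ZT20 P (0.0501, −0.33) and ZT24 P (0.0502, −0.33). They were also the wild-type libraries ZT04 I (0.0550, −0.27), ZT12 I (0.0512, −0.33) and ZT16 I (0.0625, −0.30). The summed level of 7 hepatocyte markers was also lower in knockout, at 47796 to 74629 CPM against 73893 to 104135 CPM in wild type, with none of the 7 at 0, and its part in the result was not tested. In bulk liver, fewer cells of a type and less RNA per cell cannot be told apart.

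With all libraries the genotype change of Arntl was largest at the low end of its curve, ZT08 and ZT12, but passed at no time. At ZT08 the change was −0.84 (SE 0.31, unadjusted p = 0.0165, edgeR adjusted p = 0.371) and at ZT12 it was −0.55 (SE 0.29, edgeR adjusted p = 0.518). Both rest on few reads, 19 and 20 counts in knockout against 34 and 35 in wild type at ZT08, and 29 and 40 against 49 and 47 at ZT12. At ZT20 and ZT24, with 529 to 827 counts per library, the changes were −0.05 and −0.07. Without wild-type set I the change was −0.88 at ZT08 and −0.51 at ZT12, while at ZT04 it was 0.10 and at ZT16 0.11, where all libraries gave −0.40 and −0.19. That fit set both knockout libraries against wild-type set P alone, with no term for the letter. Within set P, the log2 level of knockout over wild type was −0.11, −0.83, −0.32, −0.19, −0.10 and −0.16 from ZT04 to ZT24. Within set I, knockout was lower at every time except ZT24 (41.4 against 40.7 CPM). None of the tested changes passed, among 1.26% of genes called at ZT04, 0.934% at ZT08, 1.85% at ZT12, 1.65% at ZT16, 3.93% at ZT20 and 0.676% at ZT24. Whether the difference varied over the day was asked of the interaction of genotype and time, and Arntl gave an edgeR adjusted p of 0.963.

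**Figure D2:**
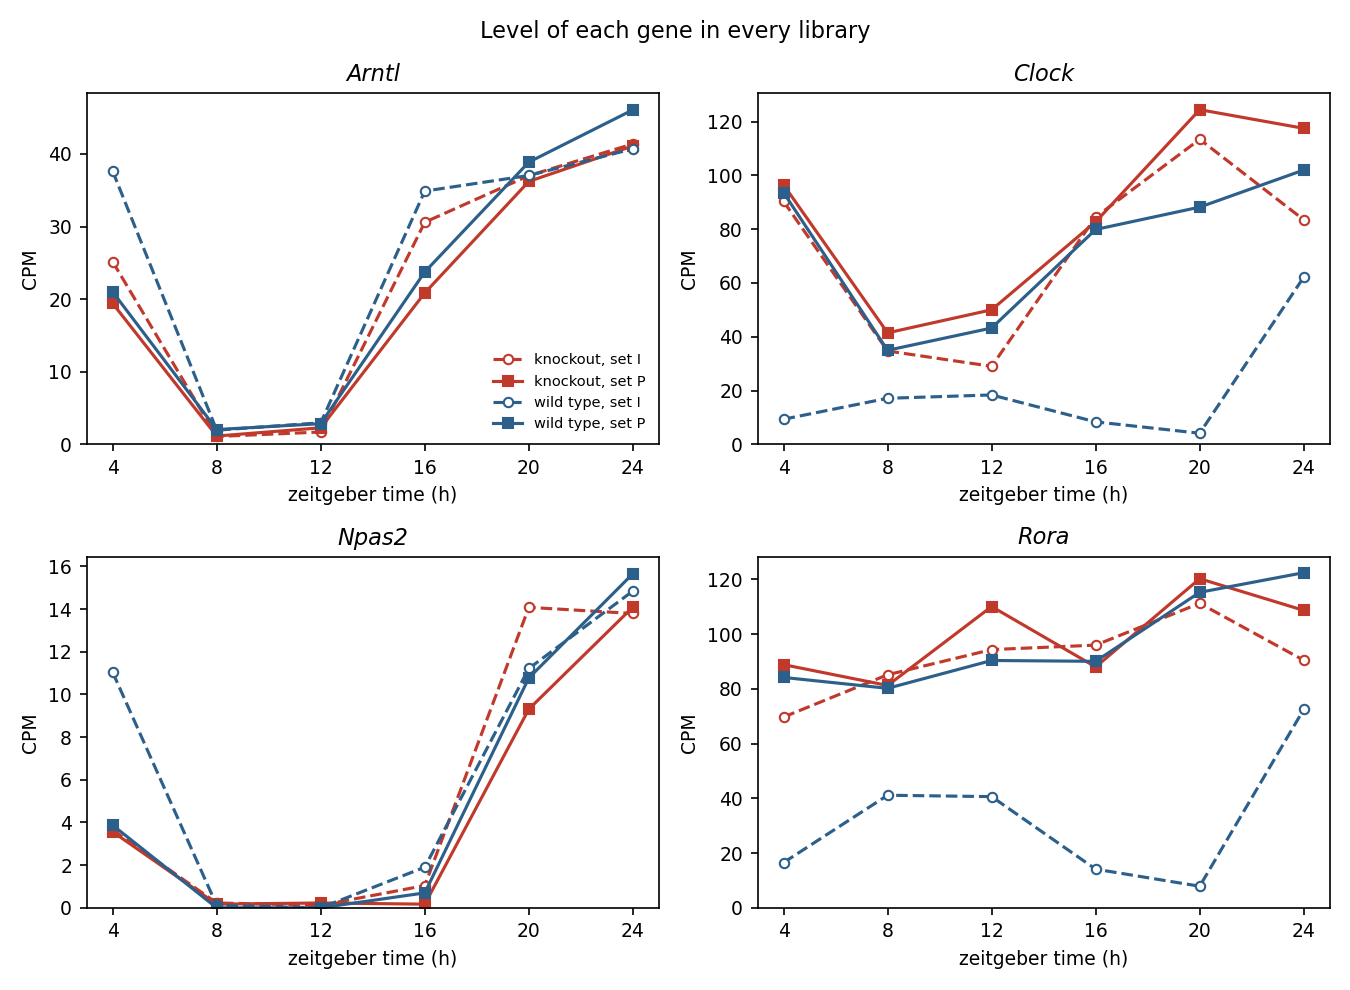
Level of each gene in CPM (vertical axis, linear, from 0) against zeitgeber time (h) in every library, with knockout in red, wild type in blue, set I as open circles on dashed lines and set P as filled squares on solid lines. Arntl and Npas2 share their low and high times in all 4 lines, with wild-type set I highest at ZT04, whereas for Clock and Rora the wild-type set I line runs far below the other 3 until ZT24.

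Clock (ENSMUSG00000029238, chromosome 5, 76209868 to 76304792, minus strand, protein coding) encodes the usual partner of BMAL1. In knockout livers its levels in set I and set P were 90.4 and 96.5 CPM at ZT04, 34.7 and 41.5 at ZT08, 29.01 and 50.03 at ZT12, 84.5 and 82.7 at ZT16, 113 and 124 at ZT20, and 83.5 and 118 at ZT24. In wild-type livers they were 9.33 and 93.6 CPM at ZT04, 17.1 and 34.96 at ZT08, 18.4 and 43.3 at ZT12, 8.35 and 79.9 at ZT16, 4.13 and 88.2 at ZT20, and 62.2 and 102 at ZT24. The knockout libraries and the wild-type libraries of set P traced the same curve, low at ZT08 and ZT12 and high from ZT16 to ZT04, and only wild-type set I did not. Read from set P, the knockout level exceeded the wild-type level at all 6 times, and the highest level was 3.001 times the lowest in knockout and 2.92 times in wild type.

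With all libraries Clock was higher in knockout by a log2 change of 0.72 that did not pass (SE 0.45, 95% interval −0.24 to 1.69, edgeR adjusted p = 0.199). In set P the change was 0.20 (SE 0.07, 95% interval 0.05 to 0.34, edgeR adjusted p = 0.0712), where 13% of all genes were called, 6.71% higher and 6.33% lower. This fit had 1 library per group and took its error from an additive model of genotype and time. Without wild-type set I the change was 0.08 (SE 0.11, edgeR adjusted p = 0.659). That last fit set both knockout libraries against 1 wild-type library per group, so its SE came from the spread between knockout libraries alone. The size of the difference therefore depends on wild-type set I. With a block for the letter, Clock rose by 1.05 (edgeR adjusted p = 0.0331) among 52.3% of all genes called, and leaving out wild-type set P at ZT04, ZT16 or ZT20 brought it to 1.14, 1.13 or 1.32 and past the threshold (edgeR adjusted p = 0.0436, 0.0473 and 0.0131). Each of those fits still holds the wild-type set I libraries. At single times the changes were between 0.29 and 1.36 with all libraries and between −0.13 and 0.42 without wild-type set I, and none passed with the filter on low counts. Without that filter Clock passed at ZT16 (0.90, edgeR adjusted p = 0.0399) and ZT20 (1.36, edgeR adjusted p = 0.000246). With wild-type set P at ZT20 left out, the change of Clock at ZT20 was 4.89 (edgeR adjusted p = 0.0151), set against the 67 counts of wild-type set I.

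Npas2 (ENSMUSG00000026077, chromosome 1, 39193731 to 39363236, plus strand, protein coding) encodes the other partner of BMAL1. Its levels in knockout livers were 3.65 and 3.56 CPM at ZT04, 0.228 and 0.172 at ZT08, 0.117 and 0.228 at ZT12, 1.04 and 0.172 at ZT16, 14.1 and 9.31 at ZT20, and 13.8 and 14.1 at ZT24. In wild-type livers they were 11.04 and 3.87 CPM at ZT04, 0.115 and 0 at ZT08, 0 and 0 at ZT12, 1.90 and 0.700 at ZT16, 11.2 and 10.8 at ZT20, and 14.8 and 15.7 at ZT24. Npas2 was thus close to absent at ZT08 and ZT12 and high at ZT20 and ZT24 in both genotypes. The knockout held 4 and 3 counts at ZT08 and 2 and 4 at ZT12, against 2 and 0, and 0 and 0, in wild type. A library with 0 counts allows up to 3 at a confidence level of 95%, so no fold is given at those 2 times.

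At the times when Npas2 was counted well, its genotypes overlapped or nearly met. The log2 change at ZT20 was 0.09 (SE 0.53) and at ZT24 −0.13 (SE 0.52), neither of which passed. At ZT04 it was −1.05 (SE 0.55, edgeR adjusted p = 0.333), which came from 181 counts in wild-type set I, against 54 in wild-type set P and 67 and 58 in knockout. Without wild-type set I the change at ZT04 was −0.09. The fitted day average was 0.68 (SE 0.45, edgeR adjusted p = 0.226) with all libraries and −0.17 (SE 0.26, edgeR adjusted p = 0.698) in set P. Wild-type groups at or near 0 counts enter these fits, so the fitted values are no bound on a fold.

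Rora (ENSMUSG00000032238, chromosome 9, 68653786 to 69388246, plus strand, protein coding) encodes RORα, which activates through ROR elements. In knockout livers its levels were 69.7 and 88.8 CPM at ZT04, 85.1 and 81.2 at ZT08, 94.3 and 110.03 at ZT12, 95.9 and 88.0 at ZT16, 111 and 120.2 at ZT20, and 90.4 and 109 at ZT24. In wild-type livers they were 16.5 and 84.1 CPM at ZT04, 41.1 and 80.2 at ZT08, 40.6 and 90.3 at ZT12, 14.1 and 90.0 at ZT16, 7.89 and 115 at ZT20, and 72.5 and 122 at ZT24. In set P the genotypes crossed, with knockout above wild type at 4 times and below it at ZT16 and ZT24, and every wild-type set I library below the set P library of its time. The set P level varied 1.48-fold over the day in knockout and 1.53-fold in wild type, the flattest of the 4 genes.

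With all libraries Rora was higher in knockout by a log2 change of 0.59 that did not pass (SE 0.38, edgeR adjusted p = 0.219). The change was 0.03 in set P (SE 0.06, 95% interval −0.11 to 0.17, edgeR adjusted p = 0.801). Without wild-type set I, which leaves wild type 1 library per group, it was −0.02. With the block for the letter it was 0.84 (edgeR adjusted p = 0.0415), and without wild-type set P at ZT20 it was 1.09 (edgeR adjusted p = 0.0111), both with wild-type set I in the fit. At single times the change without wild-type set I lay between −0.28 at ZT24 and 0.18 at ZT12 and did not pass, while with all libraries and no filter on low counts it passed at ZT20 (0.91, edgeR adjusted p = 0.0204). With wild-type set P at ZT20 left out, the change at ZT20 was 3.92 (edgeR adjusted p = 0.0125), set against the 128 counts of wild-type set I.

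**Figure D3:**
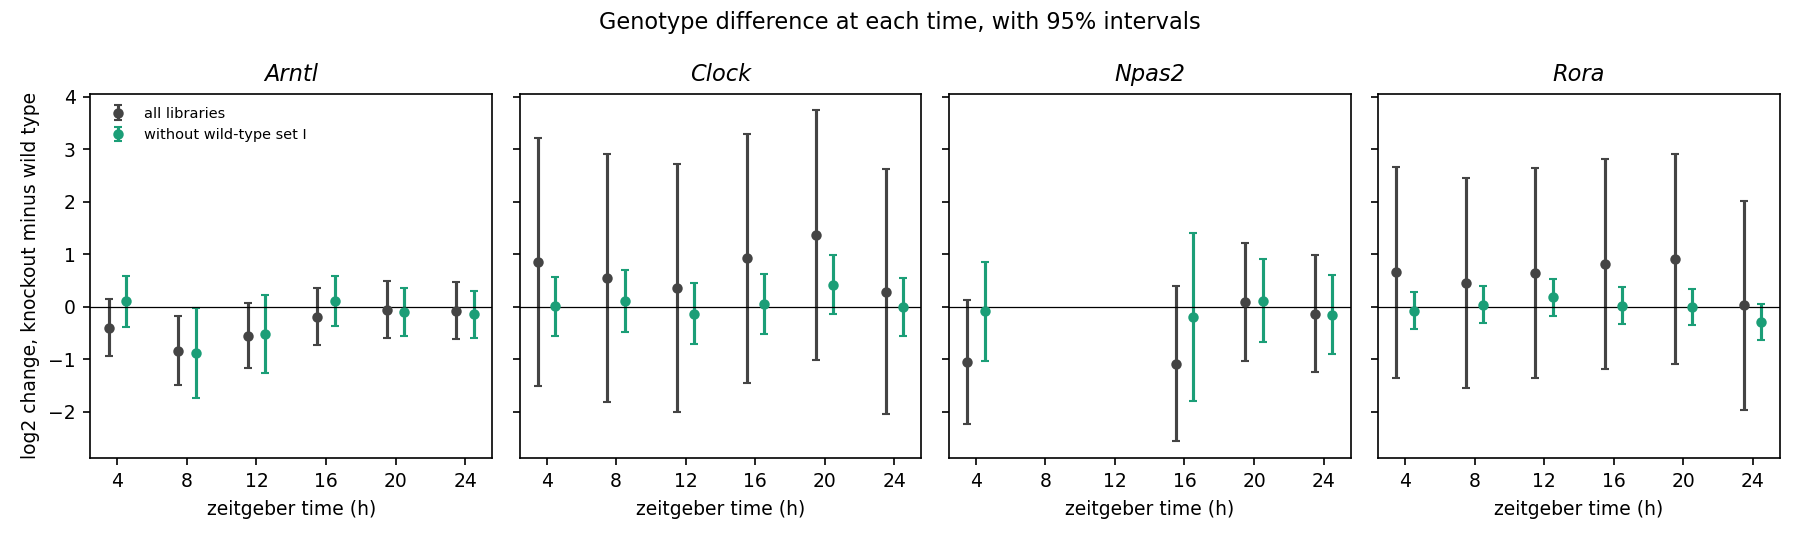
Log2 change of knockout minus wild type (vertical axis) at each zeitgeber time (h), with 95% intervals, from all libraries in grey and without the 6 wild-type set I libraries in green; ZT08 and ZT12 are left out for Npas2 because wild type is at or near 0 counts there. The green points of Clock and Rora lie between −0.28 and 0.42, with intervals far narrower than the grey ones.

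Compared per length, over union exon bases, the 4 genes ranked the same way in both genotypes by their means over the day. In set P, Rora averaged 7.61 ± 1.19 RPKM (CPM per kilobase) in knockout and 7.42 ± 1.33 in wild type, Clock 6.22 ± 2.50 and 5.37 ± 2.03, Arntl 2.68 ± 2.21 and 2.98 ± 2.402, and Npas2 0.958 ± 1.22 and 1.08 ± 1.37 (SD over 6 times). The ranges of Clock and Rora over the day overlapped, and so did those of Arntl and Npas2. This spread is the daily course and not an error. The wild-type set I means of Rora and Clock were 2.46 ± 1.85 and 1.45 ± 1.56 RPKM, below the 3.44 ± 2.42 RPKM of Arntl, so that the order itself is lost in those libraries.

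The transcripts of the partners of BMAL1 were compared by the ratio of Npas2 to Clock per length. In set P the knockout had 10.7 Npas2 per 100 Clock at ZT04, 1.38 at ZT08, 1.47 at ZT12, 0.696 at ZT16, 21.5 at ZT20 and 34.4 at ZT24. Wild-type set P had 12.0 at ZT04, 0.238 at ZT08, 0.201 at ZT12, 2.62 at ZT16, 35.1 at ZT20 and 44.0 at ZT24. Its values at ZT08 and ZT12 come from 0 Npas2 counts plus a prior count of 0.5, so no fold is given there. The knockout values at ZT08, ZT12 and ZT16 rest on 3, 4 and 3 Npas2 counts. In both genotypes Npas2 approached Clock only around ZT20 and ZT24. The mean log2 ratio was −4.05 in knockout and −3.19 in wild type, a difference of −0.86 that did not pass (exact permutation test, two-sided, p = 0.305). In set P it was −4.40 and −4.78, a difference of 0.38 of the opposite sign (exact permutation test, two-sided, p = 0.688). The opposite sign in set P rests on ZT08 and ZT12, where wild-type set P held 0 Npas2 counts. At ZT04, ZT16, ZT20 and ZT24 the set P ratio was lower in knockout. It is therefore not read as a reversal between sets. The wild-type set I libraries reached 775 Npas2 per 100 Clock at ZT20, a value set by 67 counts of Clock.

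Rhythms were tested by fitting a 24 h cosine curve in each genotype. Arntl and Npas2 passed in both genotypes with all libraries. For Arntl the edgeR adjusted p was 0.00508 in knockout and 0.00811 in wild type, and for Npas2 4.44e-05 and 2.78e-05, against 3.57% of all genes rhythmic in knockout and 8.67% in wild type. Clock did not pass with all libraries (edgeR adjusted p = 0.555 in knockout and 0.532 in wild type), but did in set P, at 0.0178 in knockout and 0.0286 in wild type, where 5.24% and 5.55% of genes passed. These fits differ in the libraries they hold and share 1 estimate of the spread over both genotypes, and the cause of the change was not tested. Rora passed in neither genotype, with edgeR adjusted p in set P of 0.463 in knockout and 0.192 in wild type.

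Within the set P libraries, peak times were close between genotypes, and so were amplitudes, taken as the log2 distance from the mean of the fitted curve to its top. In set P, Arntl peaked at ZT 21.9 with an amplitude of 2.27 in knockout and at ZT 21.9 with 2.15 in wild type. Clock peaked at ZT 22.1 with 0.80 in knockout and at ZT 22.4 with 0.73 in wild type, within the standard errors of the Arntl peaks given next. Npas2 peaked at ZT 23.3 with 3.74 in knockout and at ZT 23.0 with 4.02 in wild type, the deepest rhythm of the 4. Knockout minus wild type, the peak times differed by 0.02 h for Arntl, −0.25 h for Clock and 0.25 h for Npas2, against standard errors of the single peaks of 0.53 and 0.58 h for Arntl, 0.64 and 0.70 h for Clock, and 0.43 and 0.35 h for Npas2 in a limma fit of the same libraries. The amplitudes differed by 0.12, 0.08 and −0.28 in set P. With all libraries they differed by 0.30, 0.18 and −0.14, and in set I by 0.41, 0.05 and −0.007. For Rora the amplitudes of 0.18 and 0.27 are too small for a peak time to be read.

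The rhythm did not differ between genotypes for any of the 4 genes by edgeR (adjusted p of 0.983 for Arntl, 0.984 for Clock, 0.983 for Npas2 and 0.983 for Rora). Nor did the interaction of genotype and time, at edgeR adjusted p of 0.963, 0.998, 0.873 and 0.998 in the same order. In both tests edgeR called 0 of 15090 genes, with 966 genes at an unadjusted p under 0.05 for the interaction and 791 for the rhythm, whereas DESeq2 called 129 and 23. A p above the threshold does not show that the rhythms were alike. The curves of Arntl and Npas2 were low at ZT08 and ZT12 and changed steeply on either side for Arntl. In knockout Arntl stood at 62.4% of its highest group mean at ZT16 and 54.0% at ZT04, but at 2.70% at ZT08, and in wild type at 67.6%, 67.6% and 4.59%. Npas2 was narrower, at 4.36% at ZT16 and 25.9% at ZT04 in knockout and 8.54% and 48.9% in wild type, the last of which includes the 11.04 CPM of set I.

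**Figure D4:**
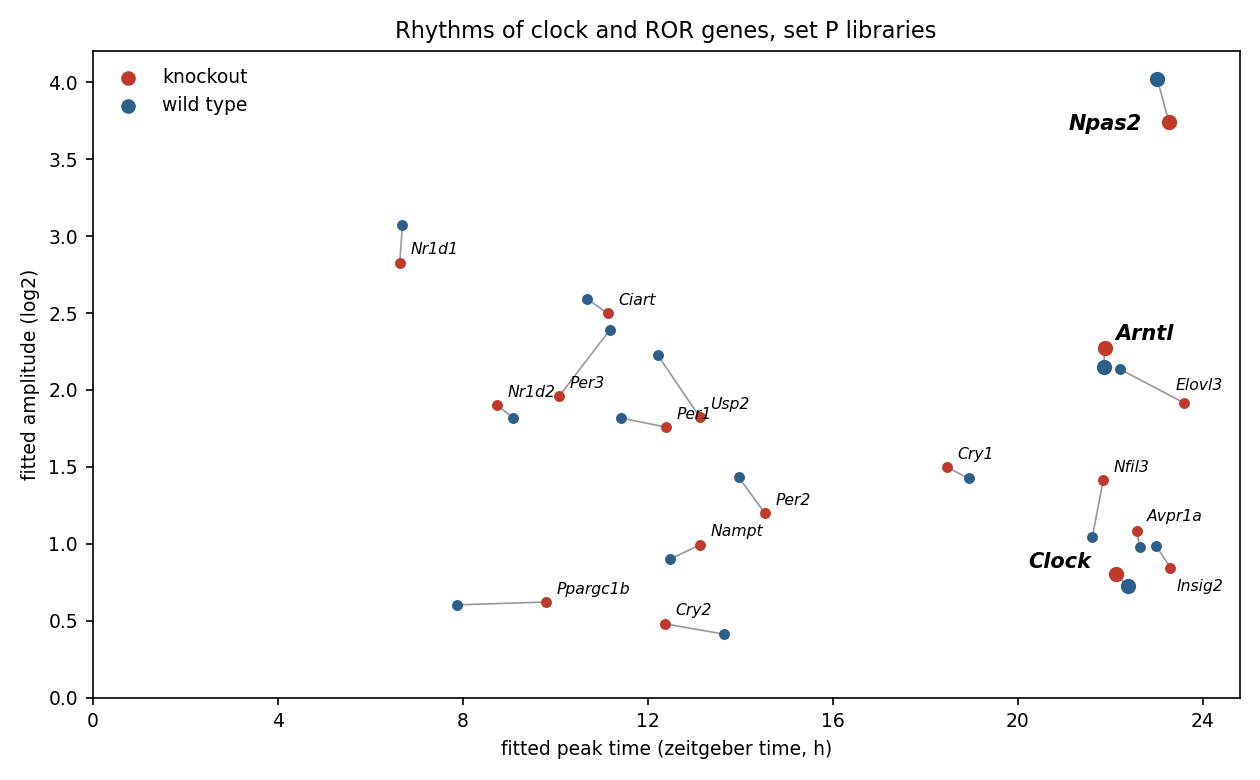
Fitted amplitude (log2, vertical axis) against fitted peak time (zeitgeber time, h) in the set P libraries, for named clock and ROR genes whose rhythm passed in both genotypes, with knockout in red, wild type in blue and a grey line joining the genotypes of a gene. Arntl, Clock and Npas2, in bold, peak between ZT 21.9 and ZT 23.3 in both genotypes, away from Nr1d1 at ZT 6.6 to 6.7.

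The genes that act on the activators were read next, from lists of known clock and ROR genes chosen with earlier results of these data known. Of the REV-ERB genes, Nr1d1 had a log2 change of 0.56 (SE 0.23, edgeR adjusted p = 0.0689), and 0.38 in set P (SE 0.11, edgeR adjusted p = 0.0504). At ZT12 it stood at 49.6 and 29.9 CPM in knockout against 11.5 and 21.6 in wild type, and at ZT24 at 30.9 and 12.0 against 2.30 and 7.30 CPM. Both knockout libraries exceeded both wild-type libraries at these 2 times, which flank the hours when Nr1d1 is high. At ZT16 both lay below, at 1.153 and 2.701 CPM against 2.702 and 2.801 CPM, and the genotypes overlapped at ZT04, ZT08 and ZT20. The share of all genes that separate in this way is not given, so this is a description. Nr1d2, whose wild-type set I libraries were low like those of Clock, had changes of 0.40 (SE 0.40) with all libraries and −0.24 (SE 0.11, edgeR adjusted p = 0.167) in set P. Neither gene was called, and both were rhythmic in both genotypes.

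Among 8 E-box-driven repressors of the activators, 4 fell and none rose, against 21.1% of all genes lower and 12.1% higher, with a list median of −0.25 beside −0.02 over all genes tested. Per3, a weak repressor of the pair, fell by 1.35 (SE 0.25, edgeR adjusted p = 0.0014). At ZT12 it stood at 26.2 and 21.4 CPM in knockout against 75.8 and 69.2 CPM in wild type, and at ZT16 at 5.93 and 7.82 against 22.3 and 37.2 CPM. Cry1, a strong repressor of CLOCK and BMAL1, fell by 0.64 (SE 0.11, edgeR adjusted p = 0.000639), with 49.6 and 37.6 CPM in knockout against 84.0 and 56.0 CPM in wild type at ZT16. Ciart fell by 0.61 and Cry2 by 0.31, while Per1 (−0.03), Per2 (−0.06), Bhlhe40 (−0.18) and Bhlhe41 (0.46) did not pass. In set P, Per3 (−1.46), Cry1 (−0.48) and Ciart (−0.51) fell, and Cry2 (−0.15) did not pass, against 6.33% of all genes lower.

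The promoter window of Per3 holds 2 D-boxes, the sequence that DBP, TEF and HLF bind, at chr4:151044851-151044882 and chr4:151044804-151044835, minus strand. They are shown because Per3 had the deepest change of the repressors, with the D-box in capitals. No D-box letters lie in the promoter windows of Arntl, Clock, Npas2 or Rora, nor in those of Ciart and Cry1, which also fell. The part of the D-boxes in the change of Per3 was not tested.
Per3, upstream D-box: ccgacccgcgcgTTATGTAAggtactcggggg
Per3, downstream D-box: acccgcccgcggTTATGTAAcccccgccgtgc

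Of 16 genes described as driven through ROR elements in liver, the members Arntl, Clock and Npas2 among them, 5 fell and none rose, against 21.1% of all genes lower, with a median of −0.11. Besides Arntl and Cry1, these were Nfil3 (−0.58, edgeR adjusted p = 0.00198), the bile acid 12α-hydroxylase gene Cyp8b1 (−0.98, edgeR adjusted p = 0.000582) and the apolipoprotein gene Apoc3 (−0.62, edgeR adjusted p = 0.0062). Nfil3, which carries the ROR core printed above, stood at 5.75 and 6.405 CPM in knockout against 8.59 and 9.48 CPM in wild type at ZT08, and at 8.97 and 10.2 against 16.3 and 18.9 CPM at ZT12. Its knockout libraries lay below its wild-type libraries at ZT04, ZT08, ZT12 and ZT16 and overlapped them at ZT20 and ZT24. The share of all genes that separate in this way is not given. The amplitude of Nfil3 in set P was 1.42 in knockout and 1.04 in wild type. In set P the genes that fell were Cry1, Nfil3 and the vasopressin receptor gene Avpr1a (−0.38, edgeR adjusted p = 0.00795). Rhythms passed in 10 of the 16 genes in each genotype with all libraries, against 3.57% of all genes in knockout and 8.67% in wild type, and in 11 of 16 in set P, against 5.24% and 5.55%.

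Of 26 kinases, ubiquitin ligases, deacetylases and coregulators of the activators, 6 rose and 4 fell, against 12.1% of all genes higher and 21.1% lower. The casein kinase gene Csnk1e (0.38), the F-box gene Fbxl21 (0.61), the kinase genes Gsk3b (0.26) and Prkaa1 (0.60), the acetyltransferase gene Kat2b (0.49) and the ubiquitin ligase gene Huwe1 (0.39) rose. The deubiquitinase gene Usp2 (−1.07), Rack1 (−0.47), Ddb1 (−0.39) and Wdr5 (−0.36) fell. In set P, 3 rose, namely Csnk1e (0.41), Fbxl21 (0.43) and the deacetylase gene Sirt1 (0.21), and 2 fell, namely Usp2 (−0.81) and Rack1 (−0.25). Over all lists, 46 of 47 other genes were tested, with 6 higher and 11 lower with all libraries, 3 higher and 7 lower in set P, and 14 higher and 14 lower with the block for the letter. With all libraries these counts lie near the shares of all genes, which were 12.1% higher and 21.1% lower. With the block, 52.3% of all genes were called in either direction. In set P the 3 higher lie near the share of 6.71%, whereas the 7 lower lie above the share of 6.33%. The lists were chosen with earlier results of these data known, so these counts are a description. No share of all genes called is given for the fits with a library left out, whose counts follow. The count of higher genes was 13, 14 and 17 without wild-type set P at ZT04, ZT16 and ZT20, and 3 without wild-type set I at ZT12 or at ZT24.

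**Figure D5:**
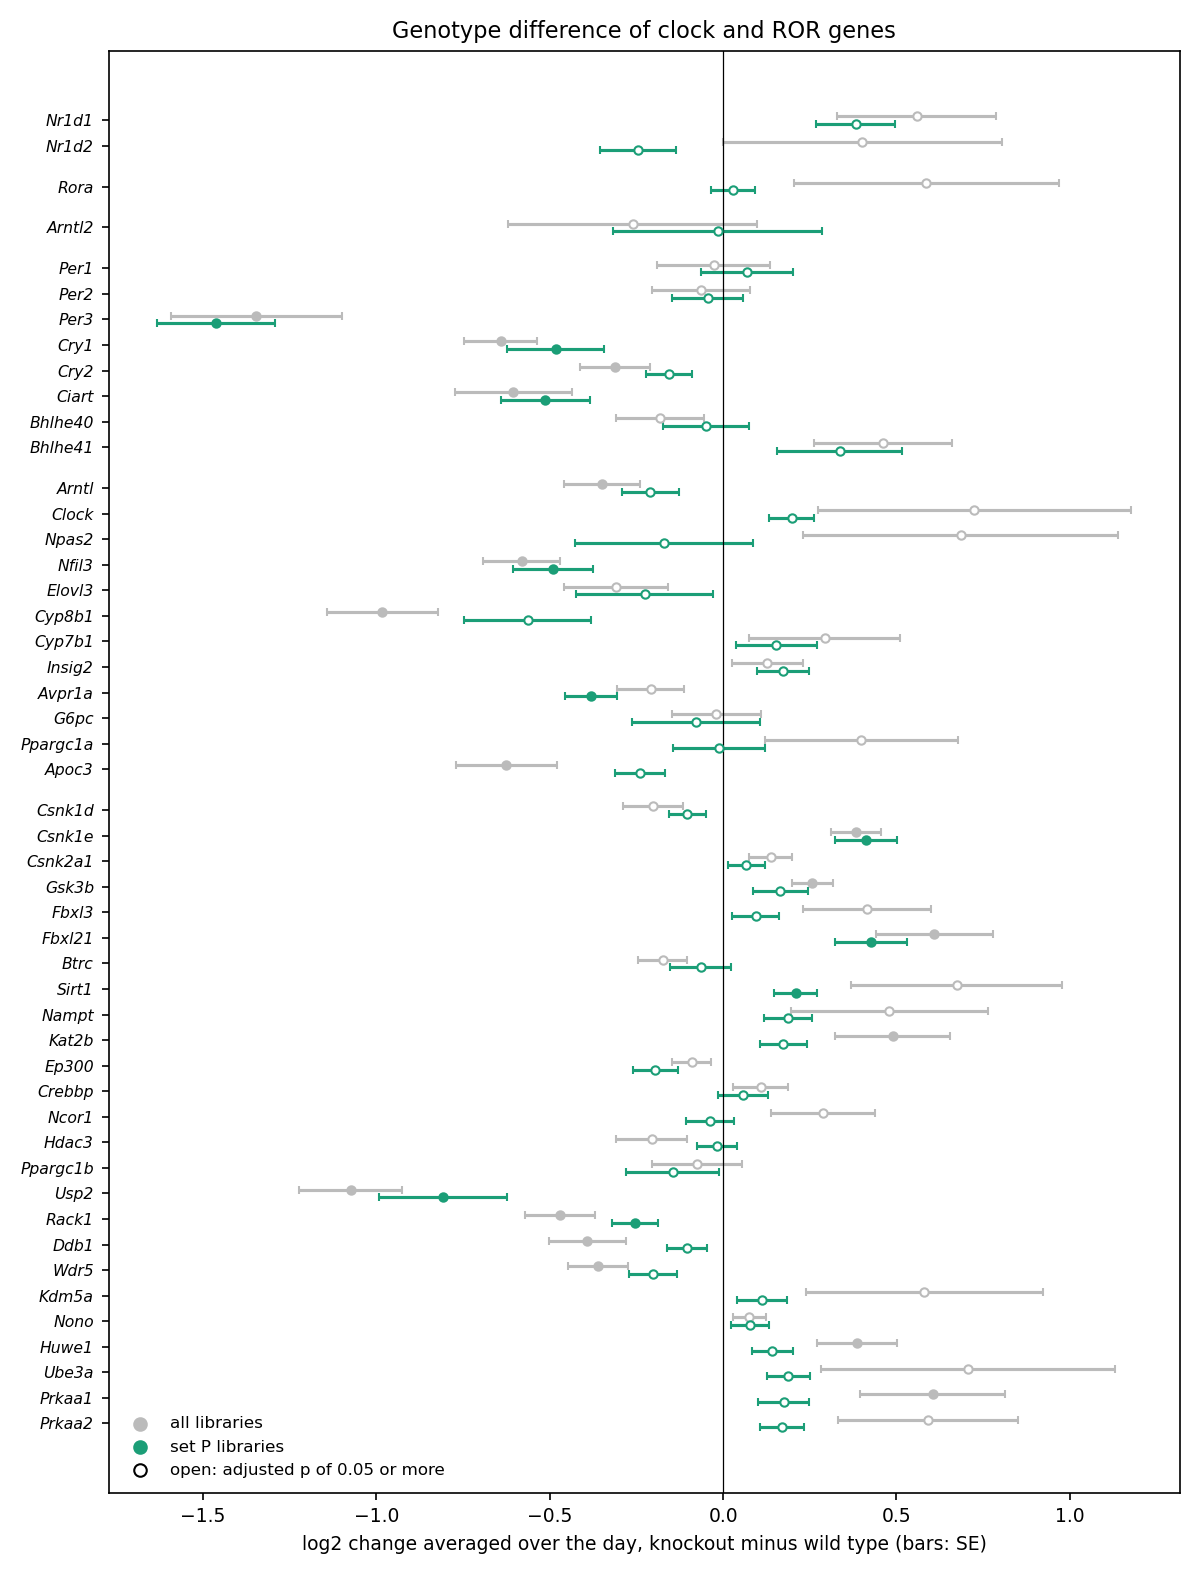
Log2 change averaged over the day, knockout minus wild type (horizontal axis, bars are SE), for the 4 genes and the named clock and ROR genes of the lists, with all libraries in grey and set P in green; filled points have an edgeR adjusted p under 0.05. The all-library point of Npas2, which rests on groups at 0, stands at 0.68, and the green points of Clock and Rora are at 0.20 and 0.03.

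The genes whose course was most like each member's were found among 10720 genes by Pearson's r of log2 CPM over the 24 libraries, which share genotype, time and library effects, so r is a description. Dnmt3b (0.964), Tubb2a (0.960), Chka (0.958) and Nedd4l (0.951) were among the genes most like Arntl, and Narf (−0.951), Pcsk4 (−0.936) and Slc5a6 (−0.929) ran opposite. Pid1 (0.947), Tars (0.925), Stra6l (0.924), Asap2 (0.918) and Mcu (0.915) were most like Npas2, and Ciart (−0.957), Upp2 (−0.933) and Gys2 (−0.923) ran opposite. For Clock the like genes included Zfhx4 (0.984), Cxadr (0.973) and Evi5 (0.966), and opposite Aamp (−0.968), Adipor1 (−0.955) and Naglu (−0.946). For Rora they were Jmjd1c (0.987), Map3k2 (0.986), Zfp148 (0.986), Lmbrd2 (0.985) and Sp3 (0.985), and opposite Tmbim6 (−0.961), Tbc1d13 (−0.953) and Shmt2 (−0.950). Over the 12 set P libraries alone, Nedd4l (0.979) stayed with Arntl, Zfhx4 with Clock (0.963) and Tars with Npas2 (0.956), whereas none of the 5 genes named for Rora was among its 5 closest there, which were led by Carmil1 (0.921).

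The members' likeness to each other depended on the libraries in the same way. In set P, Arntl and Clock had r = 0.950, Clock and Npas2 0.882, and Arntl and Npas2 0.845, with Rora between 0.552 and 0.689 of the others. Over all 24 libraries Arntl and Npas2 stayed at 0.866, whereas Arntl and Clock were at 0.257 and Clock and Rora at 0.909. In set P alone Clock and Rora were at 0.567. Genes that overlap the members held few reads, at most 175 counts for the pseudogene Ube2n-ps1 within Clock, against 25465 counts of Clock in all, and 8 and 16 counts for the antisense genes Gm45355 at Arntl and Gm15511 at Rora.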

How the data were processed

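Values start from raw counts of reads, a whole number for each Ensembl gene and library, which the authors deposited in 1 table of 24 columns without normalization. Per the labels' protocols, guanidinium thiocyanate lysis served for extraction and the TruSeq Stranded mRNA kit for the libraries. The submitters' processing notes name STAR 2.4.0i and mm10. How reads were assigned to genes (tool, annotation, strand) is not given in the sources used here, so overlapping and antisense genes cannot be told apart. Symbols, coordinates, lengths and GC content came from GENCODE M21, which matched 54409 of 54532 genes.

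Tests used edgeR 4.0.16 (quasi-likelihood, R 4.3.3) with TMM scaling, filterByExpr at a minimum of 10 counts, and Benjamini-Hochberg adjustment over all genes tested, called under 0.05. A fit of 12 group means gave the genotype and interaction tests, and a 24 h cosinor fit gave the rhythms. In set P alone, with 1 library per group, genotype and time were additive. Standard errors of peaks and amplitudes came from limma 3.58.1. DESeq2 1.42.0, other scalings, no filter, a block for the letter, a GC and length correction, single sets and left-out libraries were alternatives. Fits without wild-type set I libraries were chosen after seeing the data. The day-averaged genotype contrast, the rhythm calls, and the wild-type peak times and amplitudes of the main edgeR fits were tested on simulated data. The other steps were not, and the simulated data held no GC or length effect.

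Genes named are the members, the genes of the lists, the 5 most and 3 least like each member in log2 CPM (with the same minimum as in the pairing check, passing over clone, gene model and pseudogene names), and the deleted genes. Some genes that this rule names are not reported individually here. The members and lists were chosen with earlier results of these data known.

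Whether letters pair libraries was checked by correlating the deviations of knockout and wild-type libraries of 1 letter from their group means. Across the 11333 genes whose mean log2 CPM was 1 or more, r from ZT04 to ZT24 was 0.286, 0.203, 0.319, 0.125, 0.126 and 0.140, and over all 15090 genes it was 0.0541 to 0.231. The letters were treated as pairing on the first of these, but only the fits with a block for the letter use this. The main fits, which gave the results above unless a block is named, hold no term for the letter. The labels do not say what the letters mean.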

Additional observations from a re-analysis of the deposited data

How the results depend on the processing

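The Arntl difference averaged over the day kept its direction in every alternative run and lost its call in set P (−0.21), in set I (−0.36), without the 6 wild-type set I libraries (−0.24) and without those of ZT04, ZT16 and ZT20 (−0.22), and ranged from −0.39 to −0.27 with single libraries left out. Clock passed without a filter on low counts (0.73, edgeR adjusted p = 2.32e-08), with the replicate block (1.05), with the block after removal of the GC and length trend (0.61, edgeR adjusted p = 0.0413) and in set I (2.19), and ranged from 0.57 to 1.32 with single libraries left out. Rora passed without the filter (0.59, edgeR adjusted p = 7.05e-06), with the replicate block (0.84) and in set I (1.84), turned to −0.019 without the 6 wild-type set I libraries, and ranged from 0.44 to 1.09. The day average of Npas2 turned to −0.17 in set P and −0.35 in set I, and ranged from 0.41 to 1.21 with single libraries left out. Without the filter Clock also passed at ZT16 (0.90) and ZT20 (1.36) and Rora at ZT20 (0.91), and the interaction of Npas2 reached an edgeR adjusted p of 0.0017. The day-averaged changes of Clock and Rora without the filter were close in size to those with it, which did not pass, so only their adjusted p moved. The share of all genes called without the filter is not given. The cause of these moves was not tested.

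Rhythms of Arntl did not pass in set I, at edgeR adjusted p of 1 in knockout and 0.509 in wild type, nor did those of Npas2, at 0.42 and 0.257, where 6 libraries per genotype were fitted. Clock passed in knockout in set P (0.0178), without the 6 wild-type set I libraries (0.00076) and without 3 of them (0.0162), and in wild type in set P (0.0286) and without the 3 (0.0159), all edgeR adjusted p. With single libraries left out, the rhythm of Clock did not pass in any of 24 fits, and those of Arntl and Npas2 passed in all.

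At single times, without the 6 wild-type set I libraries and without 3 of them, Arntl turned to 0.10 and 0.10 at ZT04 and to 0.11 and 0.11 at ZT16, and Rora to −0.0716 and −0.0705 at ZT04 and to −0.000696 and −0.000132 at ZT20. Without the 6, Clock turned to −0.13 at ZT12 and −0.0038 at ZT24, and Rora to −0.28 at ZT24. Rora at ZT24 was also −0.072 with the GC and length trend removed and −0.046 with the replicate block on top. The fits without wild-type set I set both knockout libraries of these times against wild-type set P alone, with no term for the letter. Within each letter, knockout was lower for Arntl at ZT04 and ZT16. It was higher for Clock at ZT12 and ZT24 and for Rora at ZT04 and ZT20. These turns are therefore not read as reversals between genotypes. For Rora at ZT24, knockout was higher in set I and lower in set P. Leaving out single libraries, the changes at single times that turned ranged from −0.68 to 0.086 (ZT04), −0.48 to 0.11 (ZT16), −0.093 to 0.032 (ZT20) and −0.15 to 0.021 (ZT24) for Arntl. For Clock they ranged from −0.0027 to 3.39 (ZT04), −0.15 to 1.13 (ZT12) and −0.017 to 0.69 (ZT24), for Npas2 from −0.24 to 0.38 (ZT20), and for Rora from −0.087 to 2.33 (ZT04), −0.00095 to 3.92 (ZT20) and −0.29 to 0.46 (ZT24). The Npas2 to Clock ratio difference turned to 0.38 in set P, 0.74 without the 6 and 0.30 without the 3 libraries, and ranged from −1.26 to −0.46 with single libraries left out. The positive values rest on ZT08 and ZT12, where wild-type set P held 0 Npas2 counts.

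Of the other clock and ROR genes, 17 were higher without the filter, 14 with the replicate block, 12 in set I and 3 in set P, and 7 were lower in set P. With single libraries left out 3 to 17 were higher and 10 to 15 lower. In set I, 0 were rhythmic in either genotype, and the rhythm differed for 1 gene by DESeq2 and for 2 genes without the filter. No share of all genes called is given for the fits without the filter, in set I or with single libraries left out, so the counts there are a description. Apart from the calls of Clock and Rora and these counts, the replicate block changed no call of the members. With 1 library per group, no interaction and no test at a single time could be made in set P or set I alone. Depth limits Npas2 at ZT08 and ZT12, where no library held more than 4 counts.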
